A study of Mus musculus with 20 samples.

Results

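Mouse colon fibroblasts that had received conditioned medium from APTK organoids were compared with untreated fibroblasts. The comparison used the 4 libraries of each of these groups, 8 of the 20 libraries in the series, chosen by their labels and not by any measured value. All cells came from strain C57BL6/J and grew as flat cultures on plastic in Advanced DMEM F12 with 10% FBS. The APTK group was stimulated for 24 h with organoid conditioned medium, without irradiation. The untreated group, which the titles call wild-type fibroblasts, a term the titles of the other groups do not carry, got no organoid medium, and no group received medium that had not been on organoids, so effects of organoid products and of the medium itself cannot be told apart. The other groups, used here only to test differences, received medium of APTKA organoids, or APTK or APTKA medium with irradiation in 5 fractions of 2 Gy. The labels do not spell out APTK or APTKA, do not say what was irradiated, and give neither age nor sex. Whether the 4 replicates of a group are independent cultures or animals is not stated. The p-values therefore reflect only how much the libraries within groups varied, which may be technical.

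Fibroblasts sense their surroundings through soluble factors, oxygen and nutrients. Low oxygen, or the block of prolyl hydroxylases, stabilises hypoxia-inducible factors (HIF), which raise glucose transport, glycolysis and lactate export. Interferons act through receptors and transcription factors that induce antiviral genes, whereas a shortage of amino acids activates ATF4 and its targets for amino acid supply. In the gut wall, fibroblasts also supply the epithelium with Wnt ligands, R-spondins, BMP antagonists and fibroblast growth factors.

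Total counts were 24070893 to 28520377 reads in the untreated libraries and 23997746 to 27090411 in the APTK libraries. The first principal component of the 8 libraries held 61.2% of the variance and separated the groups. Of 14820 genes tested with edgeR, 6433 (43.4%) passed a false discovery rate of 5%, 3099 (20.9%) higher and 3334 (22.5%) lower in APTK medium. At least a 2-fold change was reached by 943 genes (6.36%), of which 575 (3.88%) were higher and 368 (2.48%) lower. The median log2 fold change of all tested genes was 0.00. In 6343 genes (42.8%) the 4 libraries of one group lay wholly above those of the other, in 3022 (20.4%) with APTK medium higher and in 3321 (22.4%) with it lower. Because so many genes changed, each count below is to be read against these percentages. In bulk RNA, fewer cells of a type and less RNA per cell cannot be told apart. Expression is given as CPM, the count scaled to library depth with TMM, in the order of libraries I to IV, and compared only within a gene. Without a stated strand setting, reads of overlapping genes cannot be told apart. Besides those pointed out below, this touches Aars, Angpt1, Arnt2, Atf5, Ccn2, Cd55, Cdkn1c, Dact1, Ddit3, Dhx58, Egln2, Erap1, Fbn2, Fgf10, Fgf2, Gapdh, Gbp2, Gclm, Gys1, Hif1a, Id4, Irf7, Jun, Mpc1, Ndrg1, Nfkbib, Nlrc5, Oasl1, Pdgfc, Pdha1, Ptgs1, Slc2a1, Spred3, Tagln, Tap2, Ugp2, Wnt5a and mt-Nd5 (a gene on the other strand) and Col3a1, Fgf2, Gclm and Tgfbr3 (a gene on the same strand). Each change is a log2 fold change, APTK minus untreated, with its standard error and the adjusted p of edgeR. Both rest on a spread estimated from all 20 libraries in 5 groups, not from the 8 compared libraries alone.

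Called genes were ranked if they had a mean log2 CPM of at least 2 and no overlap between groups. Predicted gene models and clone names were left out, and the predicted models given at the end rose more. Among the ranked genes, the largest rise was that of Slc16a3, the exporter of lactate from glycolytic cells. Its level was 17, 13.6, 14.9 and 18.6 CPM in untreated libraries and 144, 145, 139 and 146 CPM in APTK libraries. All 4 APTK libraries lay far above all untreated ones, a log2 difference of 3.16 ± 0.116 (adjusted p = 1.72e-14). Others of the 12 largest rises were Ak4 and Bnip3, a mitochondrial adenylate kinase and a mitophagy receptor, Ndrg2, Actn3, the muscle alpha-actinin, and Rsad2, the antiviral protein viperin. Actn3 rose by 2.03 ± 0.107 and Ndrg2 by 2.13 ± 0.0830. Arap3, whose reads may include the microRNA gene Mir6981 on the same strand, rose by 2.22 ± 0.132.

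Among the same ranked genes, the largest fall was that of Ccn3, a secreted matricellular protein. It went from 10.9, 10.6, 9.45 and 7.80 CPM to 1.11, 1.42, 1.46 and 1.49 CPM (-2.82 ± 0.165, adjusted p = 2.2e-13). Ptx3, the long pentraxin of innate immunity, went from 70.6, 66.3, 66.6 and 62.7 CPM to 11.5, 11.0, 8.96 and 9.93 CPM. The 2 groups of Ptx3 values did not overlap and differed by -2.69 ± 0.195 (adjusted p = 4.25e-09). Mt2, a metallothionein that binds zinc, fell by 2.41 ± 0.311 on the log2 scale. Slc24a3, a sodium and calcium exchanger, fell by 2.18 ± 0.197 and Chodl by 2.08 ± 0.206. Insc, an adaptor of spindle orientation, fell by 2.31 ± 0.180.

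**Figure D1:**
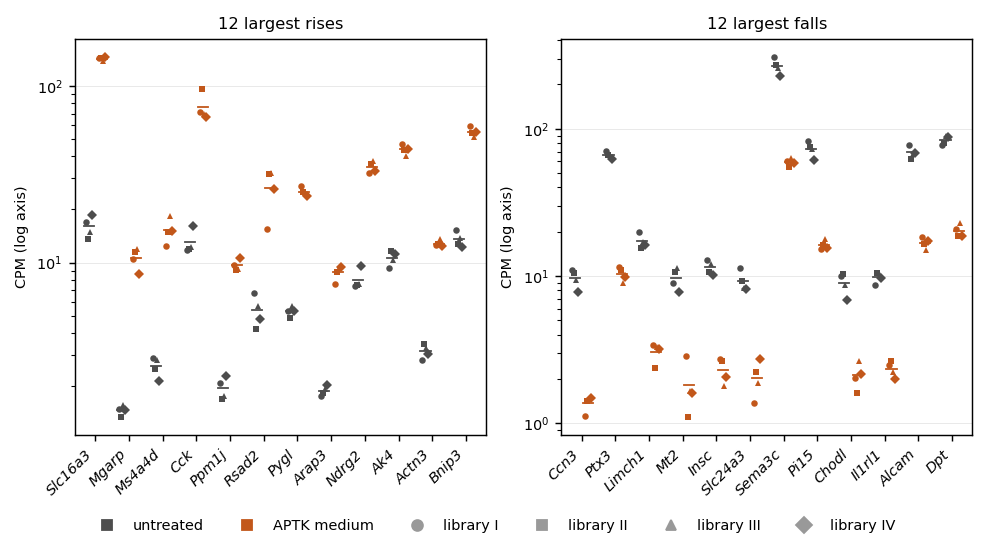
CPM of the 12 largest rises (left) and the 12 largest falls (right) in each library on a log axis, predicted gene models and clone names left out. Points are single libraries, grey untreated and orange APTK medium, with marker shape giving the library number and bars the group mean. In no panel gene do the groups overlap, as in Slc16a3 at 13.6 to 18.6 against 139 to 146 CPM.

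The glycolytic pathway rose as a group. Of 19 tested genes for glucose uptake and glycolysis, 15 were higher and none lower, with a median log2 fold change of 0.54 against 0.00 over all genes. Slc2a1, the main glucose transporter of fibroblasts, stood at 51.0, 43.6, 45.2 and 44.7 CPM untreated and at 93.0, 97.6, 96.5 and 96.6 CPM in APTK medium. The lowest APTK library was well above the highest untreated one (1.06 ± 0.0703, adjusted p = 3.03e-12). Pfkl, the liver-type phosphofructokinase, rose by 1.01 ± 0.0630, and Ldha, which turns pyruvate into lactate, by 0.88 ± 0.0674. Tpi1, the triose phosphate isomerase that overlaps Spsb2 on the other strand, rose by 1.06 ± 0.0615. Aldoc, the brain-type aldolase, was scarce in untreated cells (0.112 to 0.302 CPM) and reached 1.49 to 1.88 CPM, a log2 difference of 3.09 ± 0.294. Gapdh and Pgk1 each rose by 0.94, but both have near-identical processed copies in the genome, so their levels are uncertain. Hk2, the inducible hexokinase, did not pass (-0.21, adjusted p = 0.0629), and it passed as lower without untreated I (-0.25), with DESeq2, with its size factors, without a filter and in the fit of the 2 groups alone.

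Enzymes that set the flow through glycolysis were divided. Of 17 tested genes for control and for pyruvate and lactate handling, 5 were higher and 3 lower (median 0.01). Pdk1, the kinase that shuts pyruvate out of the tricarboxylic acid cycle, went from 35.8, 35.8, 37.6 and 36.6 CPM to 79.8, 77.9, 75.5 and 76.2 CPM. Values varied little within either group, and the difference was 1.09 ± 0.0572 (adjusted p = 3.15e-14). Pfkfb3 and Pfkfb4, which make the activator of phosphofructokinase, rose by 1.06 ± 0.0872 and 0.88 ± 0.101. Mpc1, a subunit of the mitochondrial pyruvate carrier, fell by 0.79 ± 0.199 from low levels of 1.68 to 2.2 CPM. Pdha1, the catalytic subunit of pyruvate dehydrogenase, fell by 0.34 ± 0.0459.

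Glycogen genes moved in both directions. Among 13 tested, 4 were higher and 5 lower (median 0.02). Pygl, which releases glucose from glycogen, went from 4.83 to 5.70 CPM up to 24.0 to 27.1 CPM. Ppp1r3c and Ppp1r3b, the subunits that direct phosphatase to glycogen, rose by 1.54 ± 0.138 and 1.05 ± 0.0708, and Gys1, the muscle-type glycogen synthase, by 0.70 ± 0.0589. Gbe1, the branching enzyme, fell by 0.97 ± 0.0949 and Ugp2, which makes the sugar donor, by 0.52 ± 0.0709.

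Of 9 tested genes for HIF factors and their hydroxylases, 4 were higher and 2 lower (median 0.03). Hif1a was at 418, 390, 408 and 406 CPM untreated and at 402, 411, 392 and 384 CPM in APTK medium, with overlapping groups (-0.03 ± 0.0515, adjusted p = 0.675). HIF-1 alpha is regulated mainly through its protein, which was not measured. Egln3, a HIF hydroxylase that is itself a HIF target, rose by 0.95 ± 0.0977, Egln1 by 0.47 ± 0.0646 and Epas1, the HIF-2 alpha gene, by 0.56 ± 0.147. Arnt2 and Egln2 fell by 0.75 ± 0.132 and 0.34 ± 0.0953.

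Of 33 other hypoxia response genes tested, 19 were higher and 5 lower (median 0.36). Bnip3 went from 15.4, 12.7, 13.8 and 12.2 CPM to 59.2, 54.5, 51.4 and 55.1 CPM, without overlap (2.03 ± 0.0940). Ndufa4l2, which lowers respiratory complex activity and overlaps Shmt2 on the other strand, rose by 1.90 ± 0.199, and Angptl4, an inhibitor of lipoprotein lipase, by 1.59 ± 0.263. Vegfa, the vascular growth factor, rose by 0.98 ± 0.0788. Against this direction, Ndrg1, often used as a hypoxia marker, went from 122, 124, 126 and 135 CPM down to 60.5, 54.7, 54.6 and 59.1 CPM. Every APTK library of Ndrg1 was below every untreated one (-1.15 ± 0.0918, adjusted p = 7.78e-10). Stc2, a secreted stress-induced glycoprotein, fell by 1.81 ± 0.147, and Lox, the collagen cross-linking oxidase, by 0.64 ± 0.0756.

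The HIF binding core was searched only in the form ACGTG. RefSeq promoter windows (build GRCm38.p6, 250 bases before to 50 after each start) were available for 65 of the 82 tested genes in the 4 lists on glycolysis, its control, glycogen and other hypoxia responses. They held the core on either strand for 26 of 38 higher members (68.4%), 4 of 8 lower ones (50%) and 10 of 19 that did not pass (52.6%). Over all tested genes with a window the share was 28.9%, with 27% among higher and 33% among lower genes. Stretches of 4 strongly higher genes are shown because their windows hold this core upstream of the start. Capitals mark the core on either strand, and CACGTG holds it on both strands in overlap.
Slc16a3, chr11:120949003-120949066, plus strand: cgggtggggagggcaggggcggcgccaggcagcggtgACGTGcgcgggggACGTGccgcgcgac
Mgarp, chr3:51396712-51396797, minus strand: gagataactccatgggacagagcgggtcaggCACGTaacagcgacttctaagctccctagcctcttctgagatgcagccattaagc
Ak4, chr4:101419453-101419544, plus strand: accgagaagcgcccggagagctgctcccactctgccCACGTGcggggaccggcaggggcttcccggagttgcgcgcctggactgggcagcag
Bnip3, chr7:138909559-138909663, minus strand: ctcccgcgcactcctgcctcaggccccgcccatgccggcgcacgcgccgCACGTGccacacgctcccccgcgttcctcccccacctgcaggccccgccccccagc
The match nearest to the start lay 14 bases upstream in Slc16a3, 219 in Mgarp, 213 in Ak4 and 107 in Bnip3. A match is a description of the letters and shows no binding.

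**Figure D2:**
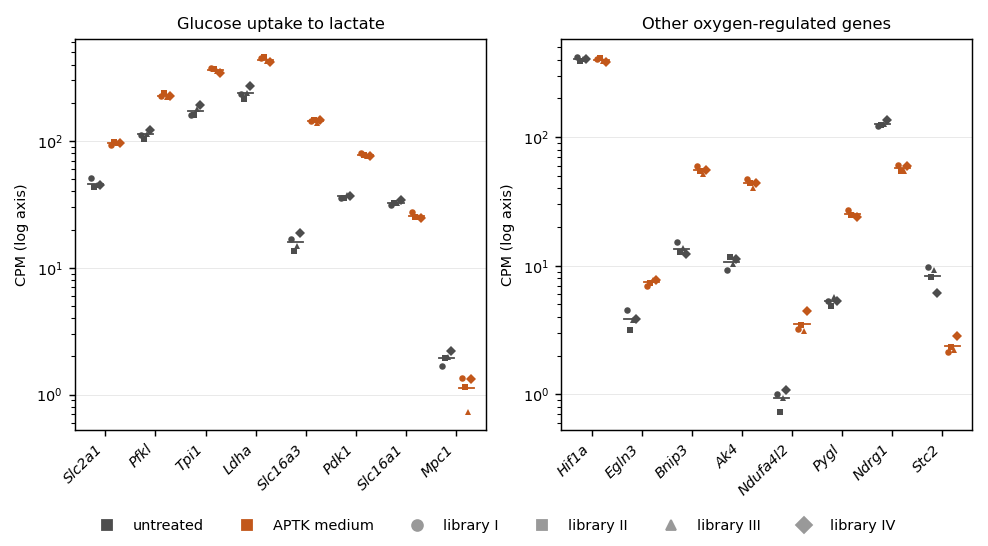
CPM per library on a log axis for genes from glucose uptake to lactate export (left) and for other oxygen-regulated genes (right). Grey points are untreated and orange points APTK libraries, with bars at the group means. Hif1a overlaps between groups, Slc16a3, Bnip3 and Pygl lie higher in APTK medium, and Ndrg1 and Stc2 lie lower.

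Mitochondrial genes changed by small amounts. Of 73 tested nuclear genes of the respiratory chain, 26 were higher and 4 lower, with a median of 0.15. Uqcrh, a subunit of complex III, stood at 66.3, 63.8, 70.5 and 73.1 CPM untreated and at 105, 91.3, 91.5 and 91.5 CPM in APTK medium (0.47 ± 0.0660). APTK I was apart from the other 3 here. It was the highest of the 4 APTK libraries in 51 of the 73 genes (69.9%, against 29.8% of all tested genes), and without it 16 genes were higher. The lower count was 0 without untreated IV, 1 without APTK II or with upper quartile scaling, and 2 without untreated II, untreated III or APTK IV or at a filter of 5 CPM. Of 16 tested genes for the tricarboxylic acid cycle and pyruvate dehydrogenase, 5 were higher and 2 lower, such as Ogdh (0.41 ± 0.0519) and Idh2 (0.39 ± 0.0539). The higher count was 3 without untreated I, untreated II or APTK IV, and 9 with upper quartile scaling (TMM otherwise). Mitochondrially encoded genes took 0.812% ± 0.0740 (SD, n = 4) of the counts in APTK libraries and 0.602% ± 0.0547 in untreated ones. The exact permutation p of 0.0286, two-sided, is the smallest that 4 against 4 libraries allow. Of 13 mitochondrially encoded respiratory chain genes, mt-Nd3, mt-Nd4l, mt-Co2, mt-Co3, mt-Atp6 and mt-Atp8 did not pass the expression filter. The share therefore holds few or no reads of them, and the reason was not tested. Of 7 such genes tested, 1 was called (2 with upper quartile scaling, DESeq2 or a filter of 5 CPM, and 3 in the fit of the 2 groups alone), mt-Nd5 (0.71 ± 0.254, adjusted p = 0.0325), and that call was lost without APTK I (0.68), APTK II (0.68), untreated II (0.71), untreated III (0.69) or untreated IV (0.68), and with no filter on low counts (0.73).

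Interferon-stimulated effectors had the highest median of the pathway lists. Of 38 antiviral effectors tested, 33 were higher and none lower, with a median of 1.02. Rsad2 went from 6.72, 4.18, 5.70 and 4.82 CPM to 15.5, 31.9, 32 and 26.1 CPM. The groups did not overlap, but APTK I lay between the untreated and the other APTK libraries (2.30 ± 0.366, adjusted p = 8.88e-05). Ifit1, which binds foreign RNA ends, went from 36.7, 25.6, 34.1 and 28.1 CPM to 61.7, 116, 140 and 104 CPM (1.76 ± 0.363). Again APTK I was the lowest of its group, and it was lowest in 35 of the 38 effectors (92.1%, against 27.1% of all tested genes), and untreated I was the highest untreated library in 23 (60.5%). Mx1, a dynamin-like antiviral GTPase, rose by 2.62 ± 0.347, Oasl1 by 2.15 ± 0.256 and Cmpk2 by 2.00 ± 0.286. Between 30 and 36 effectors were higher when any 1 library was left out. Bst2, the virus tether, did not pass (0.28, adjusted p = 0.21) and passed without APTK I (0.41). Ifit, Oas and Mx genes have close paralogs, and reads shared between them make single values uncertain.

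Of 25 tested sensors, receptors and regulators, 16 were higher and 3 lower (median 0.42). Irf7, which amplifies interferon induction, went from 21.7, 16.4, 20.6 and 22.9 CPM to 30.6, 49.7, 55.2 and 44.4 CPM (1.14 ± 0.174). Stat2, a transcription factor of the interferon response, rose by 1.25 ± 0.161. Dhx58, a cytosolic RNA sensor, rose by 1.15 ± 0.210 and Nlrc5, the activator of MHC class I genes, by 1.09 ± 0.224. The interferon gene Ifnb1 gave 2 counts over the untreated libraries and 8 over the APTK libraries, a ratio of 3.90 with a counting interval of 0.779 to 37.7. Ifng was at 0 counts in all 8 libraries.

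Of 13 interferon-inducible GTPases, which attack vacuoles of intracellular pathogens, 12 were higher and none lower (median 0.97). Igtp went from 11.3, 7.55, 8.40 and 8.78 CPM to 19.8, 30.2, 36.1 and 31.3 CPM (1.70 ± 0.217, adjusted p = 5.03e-06), and Iigp1 rose by 1.78 ± 0.279. APTK I was the lowest APTK library in all 13 tested genes and APTK III the highest in all 13. Igtp overlaps Irgm2 on the same strand, so reads of the 2 genes cannot be fully told apart. Gbp2 did not pass (-0.34, adjusted p = 0.0623), and it passed as lower without APTK III (-0.44), with DESeq2 and with a replicate block.

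Antigen presentation did not move as a group, with 4 of 14 genes higher and 4 lower (median 0.00). Cd274, the checkpoint ligand PD-L1, rose by 0.78 ± 0.185, the peptide transporter subunit Tap2 by 0.51 ± 0.0886 and H2-K1 by 0.35 ± 0.0714. Erap1, which trims peptides for MHC class I, fell by 0.86 ± 0.0649 and Psmb10, an immunoproteasome subunit, by 0.66 ± 0.0808. For B2m, the invariant chain, the difference was -0.06 (adjusted p = 0.428).

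The interferon-stimulated response element was searched as GAAA, any 2 bases and GAAA again. Windows were available for 60 of 76 members of the effector, regulator and GTPase lists. The element was found on either strand in 22 of 46 higher members (47.8%), in 5 of 11 that did not pass (45.5%) and in 0 of 3 lower ones. Over all tested genes with a window the share was 3.7%. Stretches of 3 higher genes are shown with the matches in capitals, since they hold the element upstream of the start.
Rsad2, chr12:26456513-26456622, minus strand: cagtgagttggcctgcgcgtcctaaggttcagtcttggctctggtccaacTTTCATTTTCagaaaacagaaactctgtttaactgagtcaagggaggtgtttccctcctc
Ifit1, chr19:34640754-34640863, plus strand: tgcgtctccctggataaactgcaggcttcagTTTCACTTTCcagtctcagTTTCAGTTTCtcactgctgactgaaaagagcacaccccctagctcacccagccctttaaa
Igtp, chr11:58199472-58199555, plus strand: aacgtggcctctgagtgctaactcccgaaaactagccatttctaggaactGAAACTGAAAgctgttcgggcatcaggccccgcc
The match nearest to the start lay 120 bases upstream in Rsad2, 85 in Ifit1 and 34 in Igtp. The higher members and those that did not pass held the element in similar shares.

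**Figure D3:**
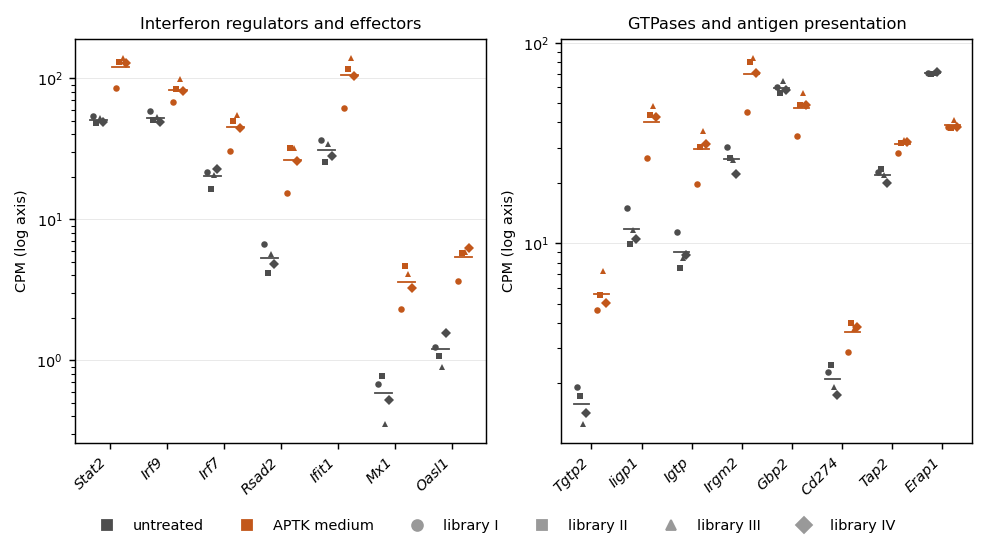
CPM per library on a log axis for interferon regulators and effectors (left) and for GTPases and antigen presentation genes (right), grey untreated and orange APTK medium, bars at the group means. The circle of APTK library I is the lowest orange point for Irf7, Rsad2, Ifit1 and Igtp. Erap1 lies lower in APTK medium.

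Chemokines and cytokines moved in both directions. Of 23 tested, 9 were higher and 4 lower (median 0.27), with 2 lower without untreated III and 1 at a filter of 5 CPM. Cxcl10, an interferon-induced attractant of T cells that overlaps Art3 on the other strand, was at 1.52, 0.863, 0.781 and 1.05 CPM untreated and at 2.92, 6.43, 6.84 and 4.75 CPM in APTK medium. As for other interferon targets, APTK I was the lowest of its group (2.31 ± 0.283). Cxcl2, a neutrophil attractant, had 0 counts untreated and 10 in APTK medium, at least 3.25-fold higher against a floor of 3 counts over the untreated group, and its call was lost without APTK III. Its relative Cxcl3 had 1 and 39 counts, a ratio of 38.1 with a counting interval of 6.44 to 1540. Il33, an alarmin, fell by 1.81 ± 0.260, and its receptor gene Il1rl1 fell by 2.07 ± 0.123.

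NF-kB genes did not move one way. Of 19 tested, 5 were higher and 4 lower (median -0.03), and 2 were higher without untreated IV and 3 without APTK IV. Nfkbiz, a nuclear co-regulator of NF-kB, rose by 0.63 ± 0.0871, and Relb and Nfkbib fell by 0.63 ± 0.0959 and 0.55 ± 0.107. Of the prostaglandin genes, 5 of 11 were higher and 3 lower (median 0.06). Ptges, the terminal synthase of prostaglandin E2, went from 19.6, 22.1, 23.5 and 25.1 CPM to 55.4, 55.0, 59.2 and 49.8 CPM (1.28 ± 0.0783), with no overlap. Ptgs1, the constitutive cyclooxygenase, rose by 0.74 ± 0.0967, and the prostacyclin receptor Ptgir by 1.36 ± 0.195. Ptger3, a receptor for prostaglandin E2, fell by 2.16 ± 0.375. Among acute-phase and complement genes 4 of 11 were higher and 3 lower (1 lower at a filter of 5 CPM). Serping1, the C1 inhibitor, rose by 0.80 ± 0.132 and Cd55, which breaks up complement convertases, fell by 1.03 ± 0.158.

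The list of p53 and its direct targets fell as a group. Of 31 tested, 20 were lower and 4 higher, with a median of -0.40. The other 7 did not pass. Only lower members are described below. Bbc3, the pro-apoptotic PUMA, went from 62.6, 65.4, 65.5 and 66.0 CPM to 30.1, 28.6, 31.4 and 29.8 CPM. The values hardly varied within either group (-1.11 ± 0.158, adjusted p = 1.62e-05). Eda2r, a member of the TNF receptor family, went from 282, 291, 299 and 260 CPM to 138, 131, 140 and 128 CPM (-1.07 ± 0.0674). Btg2, an antiproliferative factor, fell by 0.75 ± 0.127, Aen, a nuclease of apoptosis, by 0.73 ± 0.0678 and Apaf1, the apoptosome scaffold, by 0.69 ± 0.0620. Pmaip1, also called Noxa, fell by 0.61 ± 0.0756 and Sesn2, a stress-induced inhibitor of mTORC1, by 0.56 ± 0.0558.

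Genes of the integrated stress response and of amino acid supply were lower together. Of 20 tested regulators, 12 were lower and 3 higher (median -0.24). Atf3, a stress-induced transcription factor, went from 4.28, 3.88, 3.98 and 4.71 CPM to 0.845, 0.650, 0.988 and 1.06 CPM, with no overlap (-2.25 ± 0.365). Atf4, the central factor whose protein is controlled by translation, fell by 0.22 ± 0.0528, Ddit3 by 0.53 ± 0.0737 and Atf5 by 0.50 ± 0.0922. Trib3, a pseudokinase target of ATF4, was at 172, 172, 183 and 114 CPM untreated and at 105, 83.8, 90.9 and 93.8 CPM in APTK medium. Untreated IV was far below the other untreated libraries but still above all APTK libraries (-0.78 ± 0.236, adjusted p = 0.0136).

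Of 21 genes for amino acid synthesis and transport, 16 were lower and 1 higher, and the median of -0.52 was the lowest of the pathway lists. Slc7a11, the cystine importer, went from 36.0, 33.9, 33.4 and 33.3 CPM to 16.9, 12.6, 13.7 and 14.4 CPM (-1.25 ± 0.0843, adjusted p = 4.19e-12). The groups were far apart, with the lowest untreated value above the highest APTK one. Slc1a4 and Slc7a5, importers of neutral amino acids, fell by 1.09 ± 0.0625 and 0.84 ± 0.0766, and Slc7a1, the arginine importer, by 0.84 ± 0.111. Mthfd2, of the mitochondrial folate cycle, fell by 0.74 ± 0.0646 and Asns, the asparagine synthetase, by 0.33 ± 0.0650. For Aldh18a1, of proline synthesis, the difference was 0.05 (adjusted p = 0.456). Cytosolic tRNA synthetases, which charge tRNAs with amino acids, were lower in 14 of 20 and higher in 1 (median -0.23), or in 2 with upper quartile scaling, at a filter of 5 CPM and in the fit of the 2 groups alone. Eprs fell by 0.52 ± 0.0640, Aars by 0.51 ± 0.0469 and Lars by 0.48 ± 0.0543.

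The C/EBP-ATF composite core that ATF4 can bind is TGATGNAA. Among 46 of 61 members of the 3 lists with a window, it stood in 11 of 31 lower members (35.5%), 1 of 5 higher ones (20%) and 3 of 10 that did not pass (30%), against 2.79% of all tested genes. Stretches of Atf3 and Slc7a11 are shown because they had the largest falls among lower members with a match wholly upstream of the start, with matches in capitals.
Atf3, chr1:191183386-191183493, minus strand: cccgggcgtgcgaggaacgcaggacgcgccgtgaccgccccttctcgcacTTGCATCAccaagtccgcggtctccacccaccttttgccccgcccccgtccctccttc
Slc7a11, chr3:50443614-50443710, minus strand: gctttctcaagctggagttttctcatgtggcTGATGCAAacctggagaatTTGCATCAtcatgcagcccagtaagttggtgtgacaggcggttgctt
The match nearest to the start lay 110 bases upstream in Atf3 and 47 in Slc7a11.

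Genes of the list of antioxidant and NADPH genes linked to NRF2, a regulator of antioxidant genes, were also lower. Of 22 tested, 15 were lower and 1 higher (median -0.29). Gclc, which sets the rate of glutathione synthesis, went from 56.6, 61.7, 61.8 and 64.8 CPM to 42.2, 37.7, 36.4 and 37.1 CPM. The APTK libraries all lay below the untreated ones (-0.68 ± 0.101), with APTK I nearest to them. Txnrd1, the thioredoxin reductase, fell by 0.66 ± 0.0553, Gclm by 0.60 ± 0.0689 and Nqo1, a quinone reductase, by 0.58 ± 0.0869. Endoplasmic reticulum genes were split, 7 of 21 higher and 4 lower (median 0.05), among them the folding chaperone Calr (0.31 ± 0.0631) and the stress sensors Atf6 (-0.39 ± 0.0499) and Ern1 (-0.26 ± 0.0585).

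**Figure D4:**
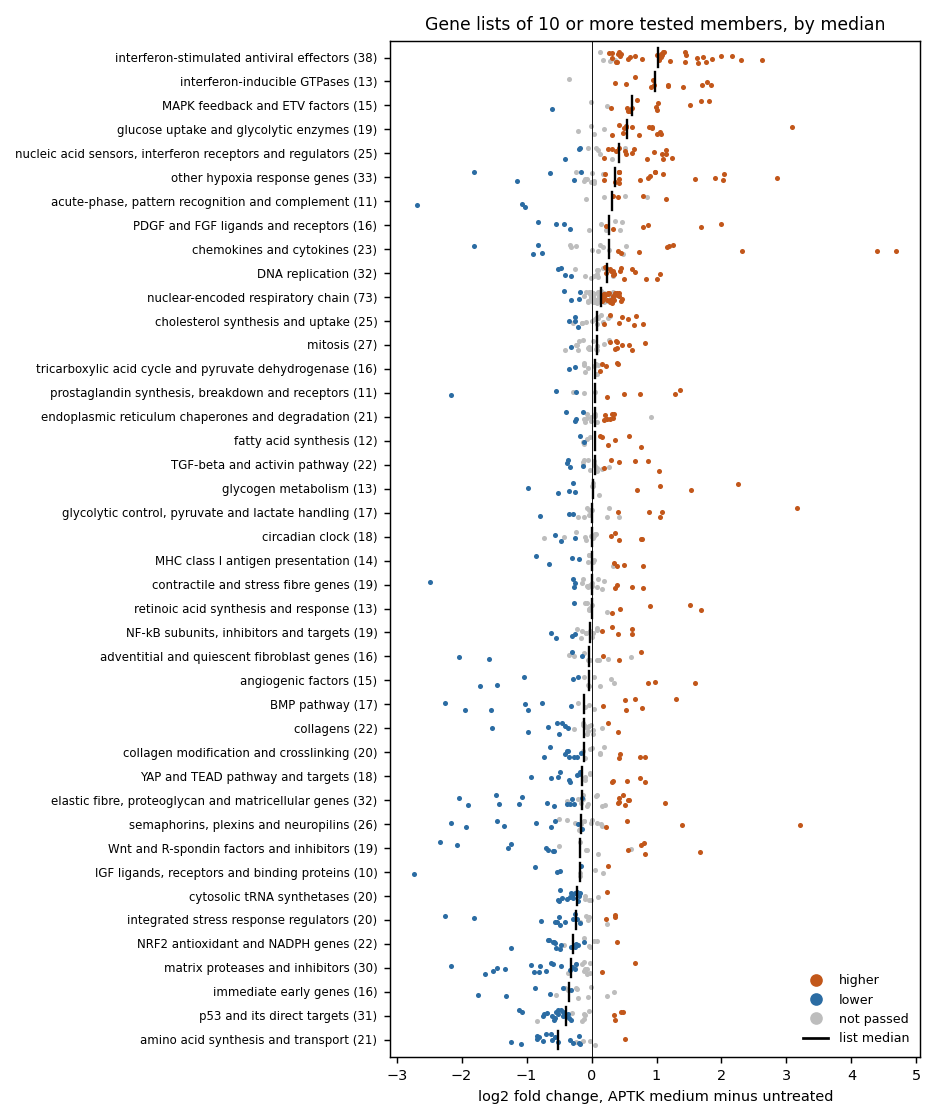
Log2 fold changes (APTK medium minus untreated) of the tested members of each gene list with 10 or more tested members, ordered by list median (black bar), with the number tested in brackets. Orange points passed as higher, blue points as lower and grey points did not pass. Interferon effectors (median 1.02) are at the top, and the list of p53 and its targets (-0.40) and amino acid genes (-0.52) at the bottom.

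Matrix genes fell in part, with the main fibrillar collagens unequal. Of 22 collagens tested, 8 were lower and 2 higher (median -0.12), with 1 higher when APTK IV, untreated III or untreated I was left out. Col3a1, a fibrillar collagen of soft tissue, went from 25200, 27580, 26790 and 25810 CPM to 18270, 17100, 18320 and 19150 CPM (-0.53 ± 0.0859). For Col1a1, the main chain of type I collagen, values of 10640 to 14570 CPM untreated and 9836 to 12990 CPM in APTK medium overlapped (-0.11 ± 0.124, adjusted p = 0.492). Col14a1, which sits on fibril surfaces, had the largest fall of a collagen at -1.54 ± 0.145, and Col5a3 fell by 0.99 ± 0.111. Collagen-modifying enzymes were lower in 9 of 20 and higher in 4 (median -0.12). The prolyl hydroxylases P4ha1 and P4ha2 rose by 0.43 ± 0.0538 and 0.75 ± 0.0570, and Loxl3, a lysyl oxidase that overlaps Htra2 on the other strand, by 0.82 ± 0.0939.

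Genes of elastic fibres, proteoglycans and matricellular proteins were lower in 13 of 32 and higher in 8 (median -0.14). Fbln5, needed to assemble elastic fibres, went from 422, 379, 444 and 458 CPM to 198, 196, 200 and 192 CPM (-1.12 ± 0.0570). Dpt, which organises collagen fibrils, fell by 2.05 ± 0.0957, Fmod, a small leucine-rich proteoglycan, by 1.90 ± 0.180 and Fbn2, a fibrillin, by 1.43 ± 0.203. Proteases and their inhibitors had 17 of 30 lower and 2 higher (median -0.32). Timp3, the matrix-bound inhibitor of metalloproteinases that overlaps Syn3 on the other strand, went from 418, 397, 372 and 347 CPM to 128, 135, 133 and 139 CPM. That was the smallest adjusted p among the genes named here (-1.52 ± 0.0566, adjusted p = 5.41e-17). Mmp15, a membrane-bound metalloproteinase, fell by 1.64 ± 0.148, Mmp13, a collagenase, by 1.33 ± 0.374 and Adamts1 by 0.93 ± 0.125. For Timp1, the soluble inhibitor, the difference was -0.02 (adjusted p = 0.824).

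Contractile genes did not move as a group (4 of 19 higher, 4 lower, median 0.00, and 7 higher with upper quartile scaling). Tagln, an actin-binding protein of contractile cells, rose by 0.36 ± 0.0695, and Itga11, the collagen receptor subunit of fibroblasts, by 0.79 ± 0.0616. Acta2, smooth muscle actin, did not pass (-0.14, adjusted p = 0.116), except without untreated II (-0.20). Genes of the YAP and TEAD pathway, with their targets, were lower in 9 of 18 and higher in 5 (median -0.14). Ccn2 rose from 1005, 1001, 1042 and 991 CPM to 1786, 1885, 1641 and 1859 CPM (0.83 ± 0.0615), whereas its relative Ccn1 fell from 415, 411, 418 and 352 CPM to 245, 278, 243 and 274 CPM (-0.62 ± 0.0768). Both are classic targets of the same factors, and the groups did not overlap in either.

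Growth factor genes included some of the clearest rises. Of 16 tested PDGF and FGF ligands and receptors, 6 were higher and 4 lower (median 0.27). Fgf10, a growth factor that fibroblasts send to epithelium, went from 25.4, 24.4, 21.4 and 21.9 CPM to 82.0, 98.5, 98.6 and 90.1 CPM (1.99 ± 0.0887). Pdgfra, the receptor that marks many gut fibroblasts, went from 76.5, 89.8, 78.6 and 80.6 CPM to 272, 258, 258 and 263 CPM (1.69 ± 0.0862, adjusted p = 2.63e-13). In both genes every APTK library lay far above every untreated one. Pdgfra shares its strand with the small gene Mir7025. Fgf2 rose by 0.87 ± 0.127 and Pdgfd by 0.79 ± 0.0760, while Pdgfc fell by 0.82 ± 0.0925 and Met, the receptor of hepatocyte growth factor, by 0.55 ± 0.114. For Pdgfrb the difference was -0.04 (adjusted p = 0.548).

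Feedback genes of the MAPK pathway and their ETV partners rose, and immediate early genes did not. Of 15 feedback genes and ETV factors tested, 12 were higher and 1 lower (median 0.63). APTK I was the lowest APTK library in 11 of the 15 (73.3%, against 27.1% of all tested genes). Etv4, a transcription factor downstream of receptor tyrosine kinases, went from 10.2, 10.8, 10.3 and 11.9 CPM to 31.9, 34.8, 36.8 and 35.5 CPM (1.69 ± 0.156). Etv1 rose by 1.80 ± 0.238, Etv5 by 0.99 ± 0.128, and Spry4, Spred3 and Spry2, which restrain RAS signalling, by 1.51 ± 0.144, 1.02 ± 0.0749 and 1.01 ± 0.0867. Dusp6, the ERK phosphatase, rose by 0.56 ± 0.126. Of 16 immediate early genes, none was higher and 6 were lower (median -0.34), and 10 were lower when only the 2 groups were fitted. Fos went from 15.2, 15.6, 10.3 and 11.0 CPM to 5.57, 6.16, 4.94 and 4.16 CPM (-1.32 ± 0.201), and Jun, its partner in AP-1, fell by 0.87 ± 0.129. Klf4, a zinc finger factor, went from 89.8, 88.5, 89.3 and 75.9 CPM to 24.2, 23.5, 29.8 and 24.6 CPM (-1.75 ± 0.106). All APTK values of these genes lay below all untreated values.

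Wnt and R-spondin genes were lower in 8 of 19 and higher in 5 (median -0.18). Among ligands, Wnt5a went from 256, 249, 254 and 257 CPM to 165, 166, 147 and 163 CPM (-0.66 ± 0.0611). The scarce Wnt2 fell by 2.07 ± 0.355, and Wnt9a fell by 1.29 ± 0.122. The R-spondins Rspo2 and Rspo3, which strengthen Wnt signals in the crypt, fell by 2.34 ± 0.247 and 0.58 ± 0.124. Among inhibitors, Dkk2 went from 102, 103, 102 and 94.5 CPM to 318, 310, 322 and 321 CPM (1.66 ± 0.0761, adjusted p = 5.78e-15). Frzb, a secreted Wnt antagonist, rose by 0.83 ± 0.129, and Dact1, an intracellular one, fell by 1.24 ± 0.114.

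BMP genes were lower in 7 of 17 and higher in 6 (median -0.11), and 4 were lower when genes needed 5 CPM in 4 libraries. The antagonists Nog and Chrdl1 fell from low levels (-2.26 ± 0.318 and -1.54 ± 0.246), and the receptor Bmpr1b fell by 1.03 ± 0.104. Id3, a direct target of BMP signalling, went from 10.4, 12.5, 13.5 and 17.5 CPM to 34.2, 38.5, 28.9 and 31.2 CPM (1.3 ± 0.149), while its relative Id4 fell by 1.95 ± 0.144. The values of Id3 did not overlap, though untreated libraries varied. Of TGF-beta and activin genes 6 of 22 were higher and 4 lower (median 0.05), with rises of the activin subunits Inhbb (1.04 ± 0.0866) and Inhba (0.67 ± 0.105) and of Tgfbr3, the betaglycan receptor (0.87 ± 0.129). Tgfbr2, the signalling receptor, fell by 0.37 ± 0.0604.

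Of 10 genes for insulin-like growth factors and their binding proteins, 5 were lower and 1 higher (median -0.18). Igfbp3 went from 2.96, 2.42, 2.93 and 2.35 CPM to 0.307, 0.497, 0.439 and 0.340 CPM (-2.73 ± 0.263) and Igfbp5 fell by 0.88 ± 0.176. Of 15 angiogenic factors, 3 were higher and 5 lower (median -0.04), with Vegfd, a growth factor of lymphatic vessels, at -1.72 ± 0.189 and Angpt1 at -1.45 ± 0.241, opposite to Vegfa. Of 26 semaphorins, plexins and neuropilins, which guide axons and vessels, 9 were lower and 4 higher (median -0.17), with 2 higher at a filter of 5 CPM. Sema3c went from 306, 271, 260 and 230 CPM to 60.8, 54.9, 63.7 and 58.4 CPM, and Sema5a and Sema3d fell by 1.93 ± 0.141 and 1.35 ± 0.0984. Sema6b rose from 0.0863 to 0.273 CPM up to 1.42 to 2.12 CPM (3.22 ± 0.338). Genes of retinoic acid were higher in 5 of 13 and lower in 1 (median 0.00; none lower without APTK II), led by Cyp26b1, which degrades retinoic acid (1.68 ± 0.243), the receptor Rarb (1.51 ± 0.194), which overlaps Top2b on the other strand, and Dhrs3 (0.90 ± 0.127).

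**Figure D5:**
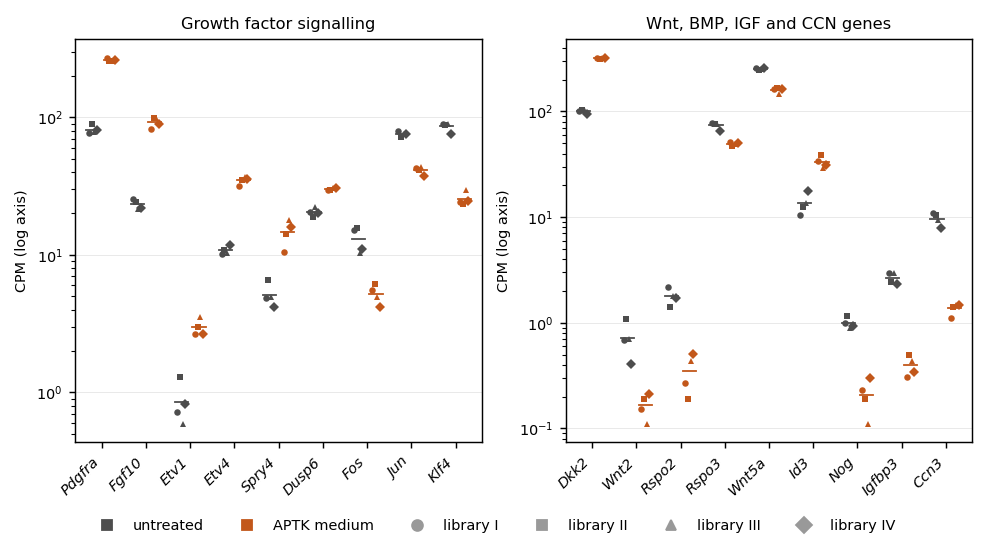
CPM per library on a log axis for growth factor signalling genes (left) and Wnt, BMP, IGF and CCN genes (right), grey untreated and orange APTK medium, bars at the group means. Pdgfra, Fgf10, Etv4, Dkk2 and Id3 lie higher in APTK medium, and Fos, Klf4, Rspo3, Nog, Igfbp3 and Ccn3 lie lower.

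Of 32 DNA replication genes, 17 were higher and 4 lower (median 0.24). Ccne1, the cyclin of entry into S phase, went from 11.0, 12.3, 12.8 and 14.0 CPM to 21.6, 21.5, 23.8 and 22.7 CPM (0.84 ± 0.0846), and Cdc6, which loads the replicative helicase, rose by 1.05 ± 0.177. Mcm7, a helicase subunit that overlaps microRNA genes on its strand, fell by 0.52 ± 0.0575. Of 27 mitotic genes, 9 were higher and 1 lower (median 0.08), with Cdk1 at 0.83 ± 0.0907. Untreated IV was the highest untreated library in 19 of the 27 (70.4%, against 31.5% of all tested genes). The lower count was 0 without untreated IV, APTK II or APTK IV, and 2 without untreated III, with the size factors of DESeq2 or in the fit of the 2 groups alone. For Mki67, a general marker of cycling cells, the difference was 0.26 (adjusted p = 0.148), and it passed with no filter on low counts (0.28). Cdkn1c, the inhibitor p57, went from 44.8, 43.1, 46.6 and 43.4 CPM to 16.6, 14.4, 14.4 and 14.1 CPM (-1.58 ± 0.101).

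APTK and APTKA media were tested against each other directly, so that the shared untreated libraries cancel. Of 14820 genes, 9324 (62.9%) differed, 4717 (31.8%) higher and 4607 (31.1%) lower in APTK medium. All 38 interferon effectors were higher in APTK than in APTKA medium (median 2.19), with Rsad2 higher by 3.67 and Irf7 by 2.18. Amino acid genes were higher in APTK in 21 of 21 (median 1.43), as for Slc7a11 (2.34). The list of p53 and its targets had 23 of 31 genes lower in APTK medium and 4 higher, with Mdm2 at -1.36 and Btg2 at -2.12. NF-kB genes were lower in 17 of 19, with Tnfaip3, an NF-kB feedback inhibitor, at -4.00, and Cxcl1 and Cxcl5 lay at -3.56 and -3.21. Glucose uptake and glycolytic genes were more often higher than lower in APTK medium, 11 of 19 higher and 2 lower (median 0.24). Of 17 genes for glycolytic control and for pyruvate and lactate handling, 12 were higher and none lower (median 0.43). Slc2a1 (0.68), Pdk1 (1.05) and Slc16a3 (0.57) were higher in APTK medium, Egln3 was lower (-1.32), and for Ldha (-0.01, adjusted p = 0.889) and Tpi1 (-0.01, adjusted p = 0.884) no difference passed. Timp3 was higher in APTK medium by 1.33, Fgf10 by 0.52 and Chodl by 4.43.

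Irradiation made a smaller difference. Of 14820 genes, 205 (1.38%) differed between irradiated APTK and APTK medium, 81 higher (0.547%) and 124 lower (0.837%), a count that depended on single libraries. It was 1271 without irradiated library IV, and without irradiated I, irradiated III, APTK II, APTK III or APTK IV it was 33, 47, 59, 32 and 72, while leaving out irradiated II gave 122. Among genes above, Cxcl5 was lower with irradiation by 0.88 (adjusted p = 0.00769), Sesn2 was lower by 0.47 (adjusted p = 4.42e-05) and Nqo1 was higher by 0.77 (adjusted p = 4.42e-05), calls that no left-out library changed. With irradiation, 7 of 38 interferon effectors and 5 of 25 sensors, receptors and regulators were lower. So were 3 of 13 interferon-inducible GTPases and 6 of 20 stress response regulators, and no member of these lists was higher. Calls such as Irf7 (-0.80), Stat2 (-0.70) and Trib3 (-1.20) changed when single libraries were left out.

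The labelled cell type was checked with marker genes. All 13 fibroblast markers passed the filter, 5 higher and 2 lower in APTK medium, with a summed level of 60169 to 67297 CPM untreated and 51595 to 57247 CPM in APTK medium. Of 11 epithelial markers 3 passed the filter and none was called, and the list summed to 1.72 to 2.29 CPM untreated and 1.66 to 2.83 CPM in APTK medium. The defining epithelial genes were close to 0, with 3 counts of Epcam untreated and 0 in APTK medium and 5 and 2 counts of Cdh1. Immune markers summed to 10.0 to 11.0 CPM untreated and 8.30 to 10.0 CPM in APTK medium, 4 of 16 tested and 1 lower, and Ptprc, the pan-leukocyte gene, had 2 and 4 counts. Endothelial markers summed to 16.1 to 19.0 and 21.1 to 27.5 CPM, 7 of 10 tested, 2 higher and 3 lower, and Cdh5 had 1 and 0 counts. Pericyte and smooth muscle markers summed to 1769 to 2063 CPM untreated and 1931 to 2214 CPM in APTK medium. This was the largest sum outside the fibroblast list, with all 10 tested, 2 higher and 2 lower. Adipocyte markers summed to 14.5 to 18 and 14.8 to 17.9 CPM, and mesothelial markers to 0.604 to 1.2 and 0.805 to 1.15 CPM. Glial and neuronal markers summed to 84.9 to 103 CPM untreated and 50.7 to 61.3 CPM in APTK medium, and the 3 tested of 7 were lower, with most of the sum from the tubulin gene Tubb3. Their part in the results above was not tested. Ribosomal protein genes took 1.25% ± 0.0874 (SD, n = 4) of counts in APTK libraries and 1.09% ± 0.0589 in untreated ones (exact permutation p = 0.0286, two-sided, the smallest possible).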

How the data were processed

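RNA of the fibroblasts was selected for polyA and sequenced. Per the submitters' processing notes, the tools included featureCounts 1.5.0-p1, STAR 2.5.2a and, besides them, bcl2fastq 2.20.0.422, with mouse build mm10. No source used here gives the annotation release or the strand setting of counting. The authors deposited raw counts per gene and library. From these, edgeR 4.0.16 in R 4.3.3 fitted all 20 libraries in 5 groups (TMM scaling, filterByExpr by group, robust quasi-likelihood F test, Benjamini-Hochberg adjustment over all tested genes, threshold 0.05). The standard error is the log2 fold change divided by the square root of F. CPM used TMM-scaled totals. Of 47729 gene IDs, 47310 matched the annotation used for names. The steps were tested on simulated data: for APTK against untreated over 14630 genes, 48% of 1.25-fold, 72% of 1.5-fold, 98% of 2-fold and 100% of 4-fold changes were recovered. In that simulation 50 genes changed at each fold and all others were set equal between APTK and untreated. It called 168 genes, of which 5.36% were genes left unchanged. Far more genes were called in the data, so these shares need not hold there. Shares of counts were compared with exact permutation tests.

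The members and gene lists were chosen with earlier results of these data known. Named genes were taken from the 12 largest rises and 12 largest falls, up to 6 called and 3 uncalled members of each list, and a set of key genes. The largest changes were ranked among called genes without overlap, with a mean log2 CPM of at least 2. Predicted gene models and clone names were left out of that ranking. Not all of these are described, and the key genes Trp53 and Cdkn1a are among those left out. The change of Mdm2 is given only against APTKA medium. Alternatives were other scalings and filters, DESeq2 1.42.0, a fit of the 2 groups alone, a replicate block and leaving out each library.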

Additional observations from a re-analysis of the deposited data

Results flagged for a closer look

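Single libraries stood apart from the other 3 of their group in 28 of 395 groups of 4 libraries whose values differed, over the 199 genes named, by Dixon's criterion for 4 values. Chance alone gives about 1 in 20 groups, a rate that does not hold for groups with only a few counts. Cxcl3 and Cdh5 had 1 count each over the untreated libraries, and Cdh1 had 2 counts, both in 1 APTK library. Such values are always flagged by the criterion. Epcam rested on 3 untreated counts. Untreated IV was the highest for Ndrg2 (9.52 CPM), Cdk1 (12.8 CPM) and Cxcl3 (0.0373 CPM). It was the lowest for Trib3 (114 CPM), Rspo3 (64.9 CPM), Ccn1 (352 CPM), Wnt9a (12 CPM), Klf4 (75.9 CPM), Dhrs3 (49.4 CPM) and Txnip (186 CPM). Untreated I was the highest for Ern1 (28.9 CPM) and Cdh5 (0.0400 CPM) and the lowest for Epcam (0 CPM). Untreated II was the lowest for Cxcl1 (2.93 CPM) and the highest for Dact1 (13.1 CPM), and untreated III the lowest for Itga11 (979 CPM).

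Among APTK libraries, III was the lowest for Vegfa (354 CPM) and Mdm2 (191 CPM) and the highest for Angptl4 (82.4 CPM), Erap1 (41.3 CPM), Inhbb (28.3 CPM) and Klf4 (29.8 CPM). APTK I was the highest for Uqcrh (105 CPM) and Cdkn1c (16.6 CPM) and the lowest for Nfkbib (5.38 CPM). APTK IV was the highest for Itga11 (1860 CPM) and Cdh1 (0.0849 CPM), and APTK II the lowest for Txnip (564 CPM).

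The tests of the difference itself called 9324 genes between APTK and APTKA medium and 205 genes between irradiated APTK and APTK medium.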

How the results depend on the processing

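Against untreated cells, 5305 to 6851 genes were called over the scalings, filters, tools and fits tried, and 5799 to 6043 with 1 library left out. Of 183 called genes named here, 3 lost their call under at least 1 alternative and none turned direction. Of 11 that did not pass, 5 passed under at least 1. The count for irradiated APTK against APTK medium was 492 with no filter, 10 with the 2 groups alone, 441 with DESeq2 and 32 to 1271 with 1 library left out, and the cause was not tested. Near 0, Hif1a was 0.01 and Timp1 0.02 with upper quartile scaling, and Timp1 ran from -0.08 to 0.01 with 1 library left out. The difference in mitochondrial share was 0.174 to 0.234 percentage points, and in ribosomal share 0.124 to 0.189, with 1 library left out, where 0.0571 is the smallest exact permutation p and was reached each time. On TMM-scaled totals the ribosomal difference was 0.119 (exact permutation p = 0.0857).

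Same-numbered libraries did not deviate together (r = -0.05, 0.06, -0.003 and -0.01), so the numbers were not taken to pair them. With a replicate block 6345 genes were called against untreated, 3062 higher and 3283 lower, 9277 against APTKA medium and 178 for irradiation. The block gave 0.211 for the mitochondrial and 0.164 for the ribosomal share (exact permutation p = 0.125, the smallest possible).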

Other observations

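Several predicted gene models, chosen after their values were seen, rose together. Gm10800 went from 25.1, 21.5, 20.7 and 24.7 CPM to 249, 241, 132 and 218 CPM (log2 difference 3.19, adjusted p = 1.32e-05 in edgeR), without overlap. Gm10801 rose by 3.34, Gm10717 by 3.21 and Gm26870 by 4.17. Such models can share reads, so they are not independent of each other.

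Txnip, which limits glucose uptake and was also chosen after its values were seen, went from 232, 235, 230 and 186 CPM to 594, 564, 595 and 598 CPM (1.41, adjusted p = 6.48e-12).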
